A study of Mus musculus with 39 samples.

Results

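Chil1 encodes a secreted chitinase-like protein, and its transcript was followed here in the inferior colliculus, a relay of the auditory pathway in the midbrain, in 39 mice. It is 1 of the 12393 genes that the array annotation names by a single symbol, and it is measured by 1 of the 22626 probe sets tested, 1451537_at. Chil1 was chosen on its levels across the 4 hearing groups and on its correlation with the astrocyte gene Gfap and the myeloid gene Tyrobp, so these levels and correlations are given as a description with no test. No second probe set of Chil1 was available to check it against.

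Each mouse gave 1 Affymetrix MOE430A array. All mice were untreated, of the inbred CBA/CaJ strain, and aged under the same housing. The severe presbycusis group (age-related hearing loss) held 5 mice, 4 females and 1 male. The mild presbycusis group, with limited hearing loss, held 9 mice, 4 females and 5 males. The middle-aged group, with good hearing, held 17 mice, 10 labelled female and 7 labelled male. The young adult controls, also with good hearing, held 8 mice, 4 of each sex. No source used here gives an age in months, so hearing loss and age cannot be told apart in any comparison that involves a presbycusis group. The middle-aged and young groups differ in age and are both described as having good hearing.

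Chitinase-like proteins have the fold of the chitinases that cleave the polymer chitin, and Chil1 binds chitin without cleaving it. In the brain the gene is known from reactive astrocytes and from microglia and macrophages, and its human counterpart CHI3L1 is measured in cerebrospinal fluid as a marker of glial inflammation. The secreted protein is known to bind several cell surface receptors, among them Il13ra2, and inflammatory cytokines acting through NF-kappaB and STAT3 are known to raise its transcription.

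The promoter is shown because those factors act on DNA. RefSeq places the start of Chil1 on the plus strand of mouse chromosome 1, and the 250 bases before it, at chr1:134181906-134182155 of GRCm38.p6, read as follows, with the 1 match to the kappa B motif in capitals.

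Chil1 promoter: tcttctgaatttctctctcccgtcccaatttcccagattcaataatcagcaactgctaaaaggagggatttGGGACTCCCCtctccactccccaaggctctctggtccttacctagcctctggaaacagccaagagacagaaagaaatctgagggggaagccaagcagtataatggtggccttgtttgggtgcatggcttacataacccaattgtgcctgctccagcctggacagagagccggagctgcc

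The kappa B match begins at position -179 from the start, and 3.9% of 32851 RefSeq promoter windows of that length hold the motif on either strand. Searched on both strands, the STAT palindrome TTCNNNGAA, the NFI palindrome, the E-box CACGTG bound by clock proteins and the AP-1 motif TGANTCA had 0 matches in this window. They occur in 7.02%, 0.0365%, 6.02% and 6.75% of the windows, in that order. The GC content was 51.6%, against a median of 52.4% over all windows.

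The arrays were of like overall brightness, with median intensities of 149.8 to 224, and 8 of 39 carried a suffix in their deposited array name (2 severe, 2 mild, 3 middle-aged and 1 young). The sex genes Eif2s3y and Xist matched the labelled sex on 38 of 39 arrays. The exception was middle-aged replicate 4, labelled female, whose log2 levels of 9.39 for Eif2s3y and 8.60 for Xist lay within the male ranges, and its Chil1 level of 180 was the lowest of its group. The mean log2 level of 7 cerebellar genes reached 11.43 on 1 young array and 10.75 on 1 middle-aged array, while the severe arrays lay between 7.78 and 8.47 and the mild arrays between 7.75 and 8.40. The number of arrays, not a read depth, limits the precision of each value.

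Chil1 was bright in every severe mouse and in the mild females, and near the young level in middle-aged mice with good hearing. In the severe group the deposited signal intensity was 678, 936, 771 and 911 in the 4 females and 470 in the male. In the mild group it was 879, 654, 551 and 641 in the females and 314, 426, 315, 297 and 428 in the males. The lowest, median and highest values were 180, 259 and 381 in middle-aged mice, and 193, 254 and 317 in young controls. Every severe mouse was above every middle-aged and every young mouse, whereas the mild mice reached down into the ranges of both groups with good hearing. Of the 9 mild mice, 6 were above the highest middle-aged and the highest young mouse, and all 9 were above the means of both.

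**Figure D1:**
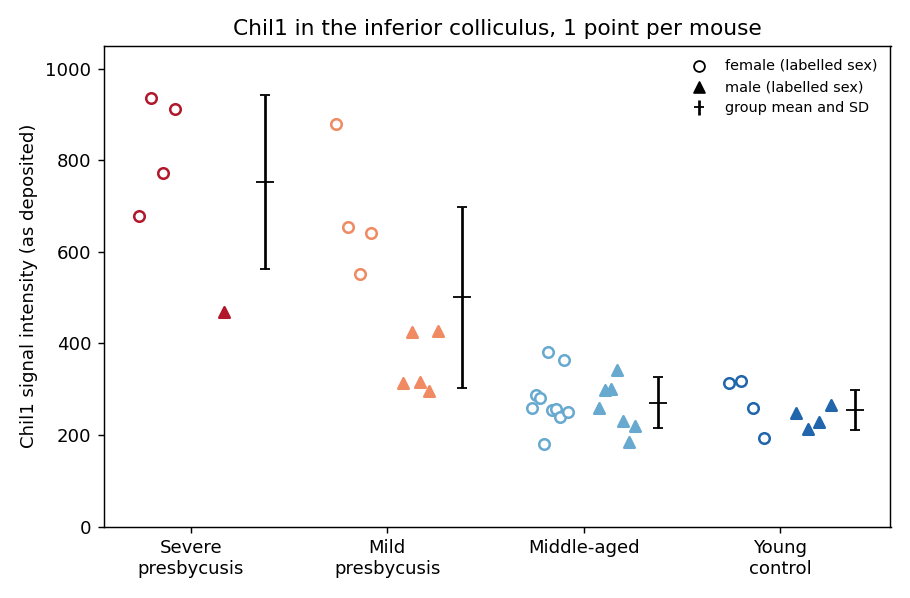
Deposited Chil1 signal intensity (vertical axis) of each mouse in the 4 groups (horizontal axis), with open circles for labelled females, filled triangles for labelled males, and a bar for the group mean and SD. The severe mice lie between 470 and 936, the mild mice between 297 and 879, the middle-aged mice between 180 and 381, and the young controls between 193 and 317.

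The means were 753.3 ± 190.4 in severe mice (SD, n = 5), 500.6 ± 196.9 in mild mice (n = 9), 270.2 ± 55.83 in middle-aged mice (n = 17) and 255 ± 44.41 in young controls (n = 8). Against the young mean these are ratios of 2.95, 1.96 and 1.06. The order of the levels was thus severe, mild, middle-aged and young. Severe and mild mice overlapped, with 2 of 5 severe mice above the highest mild mouse. Middle-aged and young mice differed in their means by less than the SD of either group, and 3 of 17 middle-aged mice were above the highest young mouse.

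On the log2(intensity + 16) scale, with sex as a covariate, severe minus young was 1.38 ± 0.18 (SE), mild minus young 0.88 ± 0.15 and middle-aged minus young 0.04 ± 0.13. Against middle-aged mice the differences were 1.34 ± 0.16 in severe and 0.84 ± 0.13 in mild mice, and severe minus mild was 0.50 ± 0.18. The 3 comparisons with young share the same 8 control arrays. Taken within 1 sex, severe minus young was 1.56 ± 0.19 in females and 0.93 ± 0.30 in males, where the group holds a single severe male. Mild minus young was 1.29 ± 0.19 in females and 0.53 ± 0.18 in males. In bulk tissue, more cells that express a gene and more RNA per cell cannot be told apart.

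Sex itself was not used to choose Chil1, and it was tested. The choice did use the correlation with Tyrobp over the arrays, and Tyrobp also lay in separate ranges in mild males and females. The sex tests that involve mild mice are therefore not fully independent of the choice. Within the mild group all 4 females, from 551 to 879, were above all 5 males, from 297 to 428. The means were 356.2 ± 65.14 in males (SD, n = 5) and 681.2 ± 139.6 in females (n = 4). The male minus female difference was -0.90 on the log2 scale (SE 0.18, 95% interval -1.27 to -0.54), with an adjusted p of 0.0161 in the limma fit. In that comparison 0.119% of the 22626 probe sets were called lower in males and 0.168% were called in either direction.

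The other groups gave smaller sex differences. In middle-aged mice Chil1 averaged 262.5 ± 54.63 in males (n = 7) and 275.5 ± 58.95 in females (n = 10), a log2 difference of -0.06 (95% interval -0.33 to 0.20, adjusted p = 0.927 by limma). In young controls it averaged 239.1 ± 23.18 in males and 270.9 ± 58.2 in females (n = 4 each), a difference of -0.15 (95% interval -0.53 to 0.23, adjusted p = 0.829 by limma). Over all groups together it was -0.35 ± 0.10 (SE), with an unadjusted p of 0.00171 and an adjusted p of 0.998 by limma. The severe male, at 470, was below all 4 severe females, a comparison that 1 male does not allow to be tested.

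The male minus female difference in mild mice minus that in middle-aged mice was -0.84 on the log2 scale (SE 0.22, 95% interval -1.29 to -0.39, limma adjusted p = 0.0349), a test added after the values were seen. For this contrast 2.97% of all probe sets were called. The same contrast with the young controls was -0.75 (SE 0.26, limma adjusted p = 0.134). Leaving out middle-aged replicate 4 gave -0.78 against middle-aged mice, with an adjusted p of 0.0432.

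**Figure D2:**
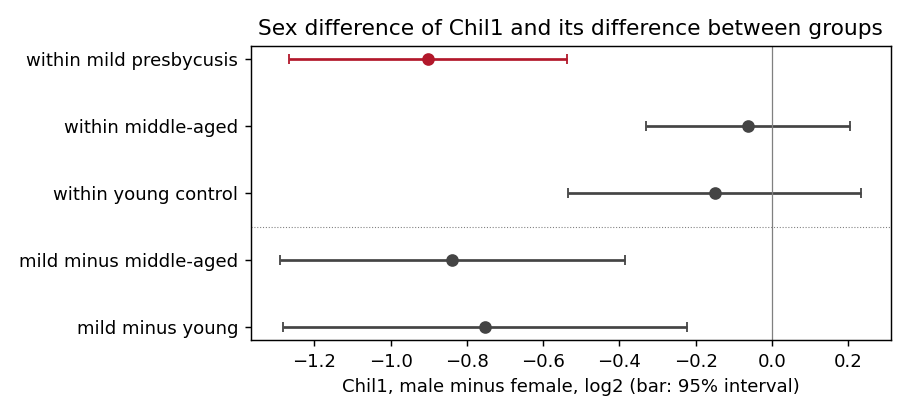
Male minus female difference of Chil1 on the log2 scale (horizontal axis) within 3 groups, above the dotted line, and the difference of those differences between groups, below it, with 95% intervals. The interval within mild presbycusis runs from -1.27 to -0.54 and lies below 0, while those within middle-aged and young mice include 0.

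The call within mild mice rested on few animals. It was lost without mild replicate 1, 5, 7 or 8, with log2 differences of -0.78, -0.92, -0.86 and -0.84 and adjusted p-values of 0.113, 0.0616, 0.0769 and 0.0706. The contrast with middle-aged mice was lost without mild replicate 1, 3, 5, 7 or 8, with values of -0.71, -0.80, -0.86, -0.80 and -0.78 and adjusted p-values of 0.113, 0.0548, 0.0672, 0.082 and 0.0797.

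Other measures also differed in part between the sexes of the mild group, though all the ranges given here overlapped. The mean log2 level of 22 myeloid genes was 8.22 to 8.46 in mild males and 8.45 to 8.89 in mild females, and that of 32 reactive astrocyte genes was 7.17 to 7.67 in males and 7.44 to 7.74 in females. The neuron list lay at 10.49 to 11.09 in males and 10.41 to 10.70 in females. The choroid plexus list lay at 6.89 to 8.15 in males and 7.24 to 8.75 in females. The log2 ratio of the 3' over the 5' control probe sets, a sign of RNA integrity, was 2.19 to 3.18 for Gapdh in males and 0.614 to 2.40 in females. For Actb it was 1.84 to 2.27 in males and 2.15 to 2.65 in females. An array name suffix was present on 2 of 5 mild males and 0 of 4 mild females, and without all 8 suffix arrays the difference was -0.77 with an adjusted p of 0.493. The part of these measures in the Chil1 difference was not tested.

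Both genes named in the choice of Chil1 were examined beside it. Tyrobp encodes the adaptor protein that signals for Trem2 and other receptors of microglia and macrophages. Its intensity was 903, 654, 557 and 450 in the severe females and 257 in the severe male. The lowest, median and highest values were 209, 313 and 558 in mild mice, 128, 201 and 296 in middle-aged mice, and 92.7, 185 and 279 in young controls. As for Chil1, the severe male was the lowest of its group, and the groups overlapped, since that male lay below the highest middle-aged mouse. Severe minus young was 1.36 ± 0.20 (SE, log2) and mild minus young 0.85 ± 0.17.

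Gfap, the intermediate filament protein of astrocytes, has 2 probe sets, which disagreed in part. With 1426509_s_at the intensity was 299, 326, 632 and 343 in the severe females and 166 in the severe male. The lowest, median and highest values were 88.9, 179 and 223 in mild mice, 10.9, 73.4 and 159 in middle-aged mice, and 39.3, 115 and 144 in young controls. By this probe set all severe mice were above all middle-aged and young mice, and mild mice overlapped both. With 1426508_at the intensity was 177, 219, 212 and 222 in the severe females and 86.8 in the severe male. The lowest, median and highest values were 58.1, 140.3 and 207 in mild mice, 44.3, 125 and 170 in middle-aged mice, and 12.7, 112 and 147 in young controls. By this second set the severe females were above all middle-aged and young mice, while the severe male lay within both of their ranges. Middle-aged minus young was -0.34 ± 0.24 (SE, log2) by 1426509_s_at and 0.31 ± 0.25 by 1426508_at, so the probe sets gave opposite signs, each under 2 standard errors from 0. Severe minus young was 1.51 ± 0.32 by the first and 0.88 ± 0.34 by the second.

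Over the 39 arrays the Pearson correlation of log2 Chil1 with Tyrobp was 0.80 (Spearman rho 0.66), and 0.76 without the 2 arrays farthest from the Tyrobp median. With Gfap it was 0.66 by 1426509_s_at and 0.42 by 1426508_at. All arrays share the platform and the group structure, and these values include the differences between groups. Within the 17 middle-aged mice, r with Tyrobp was -0.16 (rho 0.08), and 0.30 without the 2 farthest arrays. Within the 8 young mice it was -0.08. With the group means and 1 sex difference common to all groups removed from all 39 arrays, r was 0.24 with Tyrobp. It was -0.06 and 0.17 with the 2 Gfap probe sets. For Chil1 the male minus female difference was -0.90 in mild mice and -0.35 over all groups, so part of the mild sex split stays in these values.

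No r with Tyrobp or Gfap is given within the mild group, because its females and males lay in separate ranges of Chil1 and neither sex has 6 mice. The same split was seen in Tyrobp, which lay at 209 to 313 in mild males and 356 to 558 in mild females without overlap. Its male minus female difference was -0.61 ± 0.21 (SE, log2), with a limma adjusted p of 0.185. Gfap by 1426509_s_at lay at 88.9 to 201 in mild males and 88.9 to 223 in mild females, so its sexes overlapped, with a difference of 0.09 ± 0.36 (adjusted p = 0.965 by limma).

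**Figure D3:**
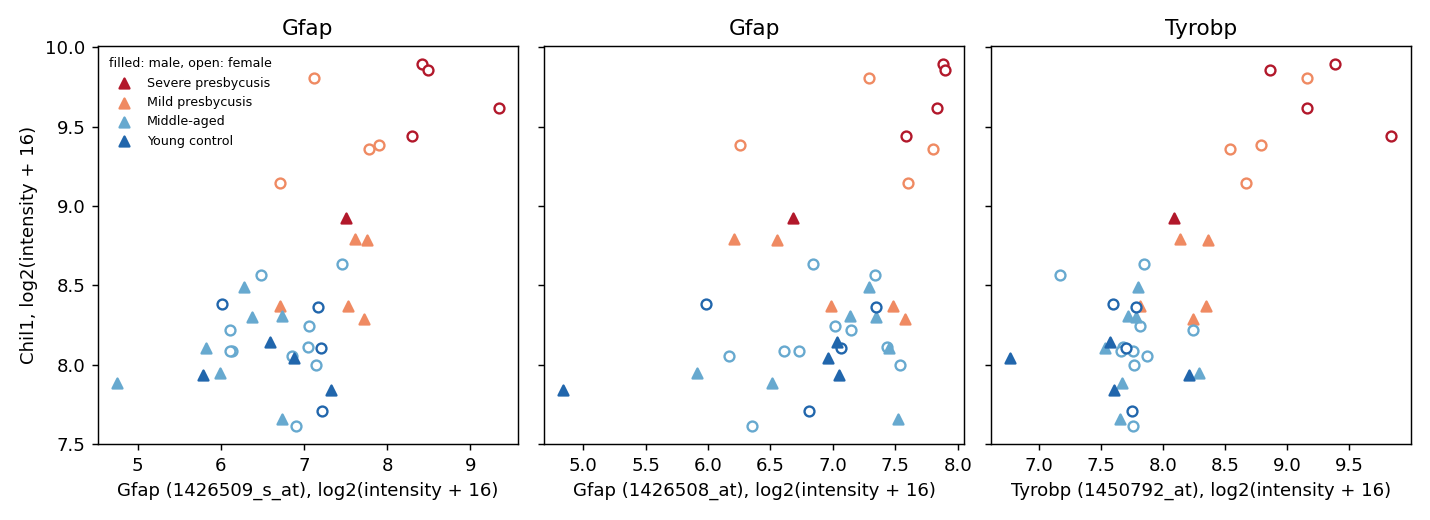
Log2(intensity + 16) of Chil1 (vertical axis) against that of Gfap by 1426509_s_at, Gfap by 1426508_at and Tyrobp (horizontal axes), 1 point per mouse, coloured by group, filled for males and open for females. The middle-aged and young mice form 1 cloud at low Chil1 and low Tyrobp, and the severe and mild mice extend from it to higher values of both, with r = 0.80 over the 39 arrays for Tyrobp.

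Among 8486 genes ranked by Pearson r with Chil1 over the 39 arrays, Tyrobp ranked 12. The median gene had an r of -0.02, and 1.41% of genes were above 0.5. The 10 genes most like Chil1 were Ctsh (r = 0.89), Lyz1 (0.88), C1qb (0.88), Cd68 (0.87), H2-D1 (0.84), Clec7a (0.83), Ctsd (0.82), Ctsz (0.82), S100a1 (0.81) and Mpeg1 (0.81). Of these, Ctsh, Ctsd and Ctsz encode lysosomal cathepsin proteases, Cd68 a lysosomal glycoprotein of macrophages, Lyz1 a lysozyme and C1qb a chain of complement C1q. Clec7a encodes the fungal glucan receptor dectin, Mpeg1 a pore-forming protein of macrophages, H2-D1 a class I histocompatibility antigen and S100a1 a calcium-binding protein. The probe sets of Lyz1, C1qb and H2-D1 carry the x_at suffix, which marks probes shared with related sequences, and S100a1 is read by an s_at set, so near-identical genes may share their signal.

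Ctsh, the gene most like Chil1, had intensities of 299 in the severe male and 647 to 868 in the severe females. It lay at 255.5 to 368.5 in mild males and at 399.5 to 592.2 in mild females, at 171 to 334 in middle-aged mice and at 221 to 313 in young controls. The severe male was the lowest of its group and lay within the middle-aged range. Because the 10 genes were ranked on these same arrays, a pattern they share with Chil1 follows from the ranking and is given as a description. For C1qb the mild males had 416 to 651 and the mild females 774 to 1210.

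The likeness was weaker inside a group. Within the 17 middle-aged mice r was 0.54 for S100a1, 0.44 for C1qb and 0.37 for Ctsh, but -0.07 for Clec7a and -0.14 for Mpeg1. With group means and 1 sex difference common to all groups removed, the 10 highest were Taldo1 (0.68), Suds3 (0.68), Pkig (0.67), C1qb (0.65), Ctsl (0.65), Ubap1 (0.64), Pigc (0.63), Dhrs1 (0.63), Ifnar2 (0.62) and Psmc1 (0.62). Part of the sex split of the mild group stays in these values. Ubap1 lay at 384 to 575 in mild females and 231 to 338 in mild males, without overlap. Suds3 lay at 879 to 1190 in mild females and 633 to 1035 in mild males, with overlap. Only 1 gene, C1qb, stood in both sets of 10. The others of the first set then ran from 0.20 for Mpeg1 to 0.59 for Ctsh, at rank 26, and Lyz1 had 0.59 at rank 29. The lowest r over the 39 arrays were -0.59 for Pipox, a peroxisomal oxidase, -0.54 for Myo7a, an unconventional myosin of hair cells, and -0.53 for Psmb2, a proteasome subunit.

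**Figure D4:**
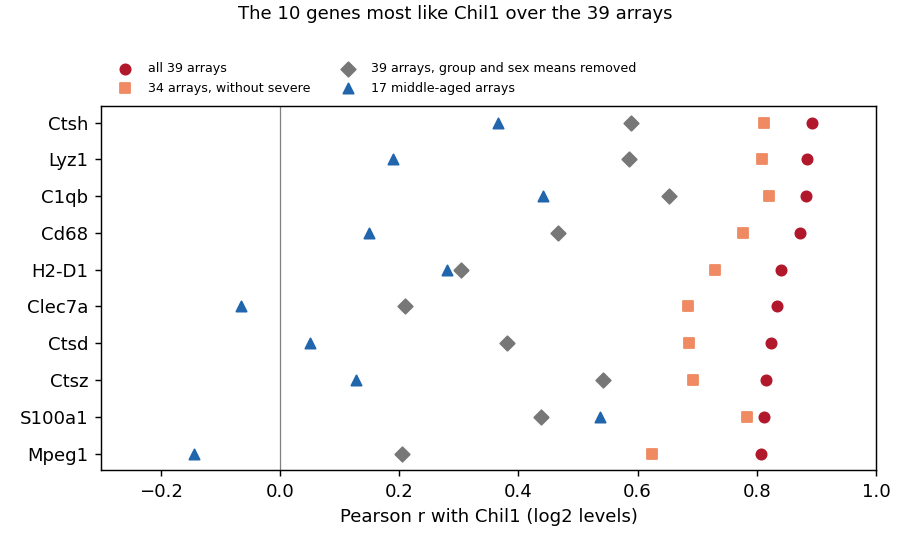
Pearson r with Chil1 (horizontal axis) of the 10 genes most like it over 39 arrays (vertical axis). It is given for all 39 arrays, for the 34 arrays without the severe group, and within the 17 middle-aged arrays. It is also given after removal of group means and 1 sex difference common to all groups. All 10 genes lie at or above 0.81 over the 39 arrays, and within middle-aged mice they range from -0.14 to 0.54.

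The other members of the chitinase family did not pass the test. Of 10 listed members 7 genes were measured, with Chil5, Chil6 and Chit1 not analysed here. Apart from Chil1 itself, 0 of the 6 others were called in severe or mild mice against young controls, where 0.53% and 0.168% of all probe sets were called. Of these 6, 2 had an unadjusted p under 0.05 for severe minus young, Chia1 (0.0424) and Ctbs (0.0462), and 2 for mild minus young, Chil4 (0.011) and Ctbs (0.0482).

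Chia1, the acidic chitinase that does cleave chitin, averaged 27.4 ± 10.7 in severe mice (SD, n = 5) and 71.2 ± 60.7 in young controls (n = 8). Its log2 difference was -0.78 ± 0.37 (SE), with a limma adjusted p of 0.634. Chil4, a rodent chitinase-like protein, averaged 97.8 ± 41.6 in severe, 120 ± 46.5 in mild and 67.5 ± 35.4 in young mice, with differences from young of 0.58 ± 0.35 and 0.78 ± 0.29 and adjusted p-values of 0.758 and 0.596. Chil3, a product of alternatively activated mouse macrophages, was dim in every group, with 5.12 to 25.6 in severe mice and 4.74 to 15.3 in young controls. All these ranges overlapped between groups.

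Ovgp1, an oviduct glycoprotein of the family, differed by 0.16 ± 0.19 between severe and young mice. Chid1, a chitinase domain protein of lysosomes, differed by -0.07 ± 0.23 and -0.03 ± 0.13 by its 2 probe sets. Ctbs, the lysosomal chitobiase, gave 0.70 ± 0.34 by 1452504_s_at (limma adjusted p = 0.642) and 0.05 ± 0.10 by 1427658_at. The probe sets of Ctbs thus disagreed in size, and neither passed the test.

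**Figure D5:**
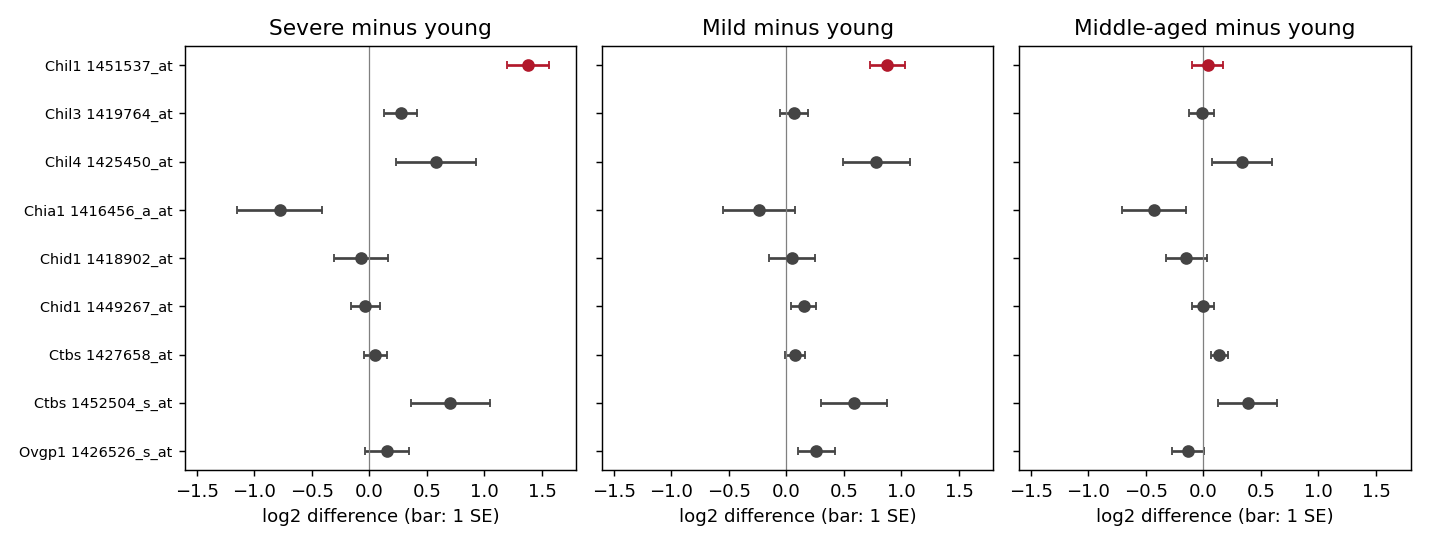
Log2 differences from young controls (horizontal axes, bars are 1 SE) of the 9 chitinase family probe sets (vertical axis) in severe, mild and middle-aged mice. Chil1 stands at 1.38 in severe and 0.88 in mild mice, and at 0.04 in middle-aged mice, and the differences of the other family members run from -0.78 to 0.78.

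Genes of the Chil1 pathway outside the family were examined as lists chosen with earlier results of these data known. Of the receptors and binding partners, 0 of 7 were called in severe mice against young controls and 0 of 7 in mild mice, with median log2 differences of 0.05 and 0.12, against -0.03 and 0.03 over all probe sets. At an unadjusted p under 0.05 the counts were 1 and 0. Lgals3, the secreted lectin galectin-3, had the largest difference, 1.00 ± 0.26 in severe mice (limma adjusted p = 0.0627). The receptors themselves differed less, with 0.05 ± 0.19 for Il13ra2, the interleukin 13 decoy receptor, -0.17 ± 0.30 for Tmem219, its partner in binding the protein, and 0.38 ± 0.22 for Cd44, the hyaluronan receptor. The count was 1 without severe replicate 4 and without mild replicate 7.

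Of 13 cytokines and cytokine receptors known to act on astrocytes or on the gene, 0 were called in severe mice (median -0.10) and 2 had an unadjusted p under 0.05. Osmr, the oncostatin M receptor, differed by 0.78 ± 0.22 (limma adjusted p = 0.131) and Tnfrsf1a, a tumour necrosis factor receptor, by 0.40 ± 0.18 (adjusted p = 0.613). The cytokines Il1b, Il6 and Tnf differed by -0.23 ± 0.17, 0.30 ± 0.23 and -0.16 ± 0.22. Without severe replicate 4 the count was 1.

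Of 12 transcription factors and their inhibitors, 0 were called in severe mice (median 0.07) and 2 had an unadjusted p under 0.05. Socs3, the feedback inhibitor of STAT signalling, differed by 0.83 ± 0.37 in severe and 0.77 ± 0.31 in mild mice, with limma adjusted p-values of 0.584 and 0.65. Stat3 differed by 0.30 ± 0.19, Cebpb by 0.73 ± 0.39 and the nuclear factor I gene Nfia by -0.65 ± 0.27 in severe mice. Of 13 clock genes, chosen because Chil1 is known to be clock regulated in mouse astrocytes, 0 were called in severe mice and 1 had an unadjusted p under 0.05, Per1, which differed by -0.40 ± 0.19 (adjusted p = 0.613 by limma).

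Of the cell type lists, the myeloid and the reactive astrocyte list held the calls in severe mice, and the other 8 had none. In severe mice 15 of 22 myeloid genes were called higher than in young controls, where 0.504% of all probe sets were, and the median difference was 1.21 on the log2 scale. In mild mice 9 of 22 were called (median 0.62, all calls 0.168%), and in middle-aged mice 0 of 22 (median 0.13, all calls 0.00442%, with 5 at an unadjusted p under 0.05). Tyrobp, on which Chil1 was chosen, is among the calls in both presbycusis groups, and without it the counts were 14 of 21 in severe mice (median 1.16) and 8 of 21 in mild mice (median 0.60). Without young replicate 3 the mild count was 5 of 22. The severe calls include Mpeg1 at 3.43 ± 0.31, C1qc at 2.76 ± 0.31 and Clec7a at 1.84 ± 0.18. In severe mice 20 of the 22 values were above 0. Trem2, the receptor that signals through Tyrobp, was below 0, at -0.28 ± 0.42 in severe and -0.84 ± 0.35 in mild mice. Itgam stood at -0.09 ± 0.35 and Aif1 at 0.12 ± 0.21 in severe mice. Trem2, Itgam and Aif1 were not called. Markers of resident microglia were divided. Cx3cr1 was called at 0.81 ± 0.16 (limma adjusted p = 0.0044). Tmem119 and P2ry12 differed by 0.25 ± 0.16 and 0.31 ± 0.16 and were not called. The mean level of the list ran from 8.61 to 9.32 in severe, 8.22 to 8.89 in mild, 7.89 to 8.15 in middle-aged and 7.65 to 8.04 in young mice. It thus moved with Chil1 over the groups, but not inside the groups with good hearing. Within the 17 middle-aged mice its r with Chil1 was -0.04, and -0.75 without the 2 arrays farthest from the median. Within the 8 young mice r was -0.69, and -0.04 without the 2 farthest arrays. The part of the list level in the Chil1 difference was not tested.

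Of 32 reactive astrocyte genes, 5 were called higher in severe mice (median 0.40) and 3 in mild mice (median 0.23). Of all probe sets 0.504% and 0.168% were called higher, with medians of -0.03 and 0.03. Gfap, on which Chil1 was chosen, is among the 5, and without it the count was 4 of 31 in severe mice. The 5 were Serpina3n, a secreted protease inhibitor, at 4.56 ± 0.57, H2-D1 at 2.31 ± 0.23, Gfap at 1.51 ± 0.32, the immunoproteasome subunit Psmb8 at 1.33 ± 0.26 and the lipopolysaccharide receptor Cd14 at 0.97 ± 0.18. H2-D1, Psmb8 and Cd14 were those called in mild mice, and myeloid cells also express them. Of 16 astrocyte genes of the unreactive state, 0 were called in either group, with 4 in severe and 1 in mild mice at an unadjusted p under 0.05. Aqp4, the water channel, differed by 0.55 ± 0.17 in severe mice (limma adjusted p = 0.229). Lcn2, a secreted lipocalin, differed by 0.62 ± 0.31 (adjusted p = 0.658).

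Of the neutrophil list 0 of 12 genes were called in severe mice (median -0.09, with 3 at an unadjusted p under 0.05), and its mean level ran from 6.36 to 7.07 in severe mice and 6.47 to 7.0 in young controls. In severe mice 0 genes were called in the fibroblast (10 measured), endothelial (8), choroid plexus (4), oligodendrocyte (6), neuron (8) and cerebellum (7) lists, and 1 each of the fibroblast, endothelial and neuron genes had an unadjusted p under 0.05. The median differences were -0.24 for the neuron list and -0.36 for the cerebellum list. The median level of the cerebellum list was 8.06 in severe mice and 8.14 in young controls, where 1 array reached 11.43. The part of that array in the difference was not tested.

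Between the sexes of the mild group, 1 of 22 myeloid genes was called lower in males, C1qb at -0.9985 ± 0.2133 (limma adjusted p = 0.0321). Of all probe sets 0.119% were called lower. The median over the list was -0.39, against 0.01 over all probe sets. The C1qb call was lost without mild replicate 1, 5, 7 or 8. Apart from Chil1 and C1qb, 0 genes of the 15 lists were called. At an unadjusted p under 0.05 there were 10 of the 22 myeloid genes, C1qb and Tyrobp included, and 5 of the 16 genes of unreactive astrocytes. There were also 6 of 32 reactive astrocyte genes, 2 of 8 neuron genes, and at most 2 genes in each other list. The share of all probe sets at that threshold is not given, so these counts cannot be set against it. In the unreactive astrocyte list 8 of 16 values were above 0, with a median of -0.05. C1qa, another chain of C1q, differed by -1.22 ± 0.34 (adjusted p = 0.104) and Cd68 by -0.63 ± 0.17 (adjusted p = 0.0919). Leaving out mild replicate 2 gave 1 call in the reactive astrocyte list, and leaving out mild replicate 3 or 9 gave 1 in the list of unreactive astrocyte genes.

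Within groups, Chil1 was tested against the mean level of 12 of these lists, leaving out the myeloid and reactive astrocyte lists that hold Tyrobp and Gfap. Of 36 relations tested by permutation in mild, middle-aged and young mice, 0 had an adjusted p under 0.05 by r or by rho, with smallest adjusted p-values of 0.479 and 0.424. At an unadjusted p under 0.05 there was 1 by r and there were 3 by rho. The relations include 12 in the mild group, where the sexes lay in separate ranges of Chil1, so their r is not given. The neuron list by r (exact permutation p = 0.0369) and the choroid plexus list by rho (exact permutation p = 0.0172) were of that group. Over the 24 relations in middle-aged and young mice, 0 had an unadjusted p under 0.05 by r and 2 by rho, and 0 had an adjusted p under 0.05, with smallest adjusted values of 0.553 by r and 0.424 by rho.

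Both relations past the unadjusted threshold by rho were in the 17 middle-aged mice. With the unreactive astrocyte list r was 0.41 (permutation p = 0.0966, adjusted over 36 p = 0.479) and rho was 0.51 (permutation p = 0.0353, adjusted p = 0.424), with an r of 0.61 without the 2 arrays farthest from the median. With the neutrophil list r was -0.43 (permutation p = 0.0884, adjusted p = 0.479) and rho was -0.53 (permutation p = 0.0301, adjusted p = 0.424). In the 8 young mice r with the unreactive astrocyte list was 0.61 (exact permutation p = 0.1, adjusted p = 0.479) and rho was 0.62 (exact permutation p = 0.115, adjusted p = 0.495). These did not pass the correction.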

How the data were processed

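Total RNA of 39 inferior colliculi was labelled with biotin and hybridized to Affymetrix MOE430A arrays, per the labels' protocols. The values used are the signal intensities as deposited, linear and 1 per probe set. No source used here names the algorithm behind them. The trimmed mean of each array with 2% left out at each end lies at 500.101 to 500.198, so the arrays were scaled to a common mean. A second deposited table with RMA intensities of 33 probe sets served here only for the suffixes of its array names, and 249 further per-sample columns stayed unused. Groups and sex came from the labels.

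Of 22690 probe sets 64 controls were left out. GEO's platform annotation, which can be old, gave 1 symbol for 20380 of the tested probe sets, several for 691 and none for 1555. Values were analysed as log2(intensity + 16) with no further normalization. limma 3.58.1 in R 4.3.3 fitted group and sex to the 39 arrays with a variance trend (residual degrees of freedom 34, prior 5.58), and a model with a mean for each group and sex gave the sex tests. Tests were 2-sided, with Benjamini-Hochberg adjustment over 22626 probe sets and a threshold of 0.05. Counts of list genes at an unadjusted p under 0.05 are given without the share of all probe sets at that threshold. Correlations within groups used exact permutations below 10 arrays and 100000 resamples otherwise. A gene was read by its brightest probe set, and the likeness ranking used genes whose mean was in the upper 60%, which leaves out Gfap. Named genes are Chil1, Gfap, Tyrobp, the chitinase family, the 10 most and 3 least alike by r, and the 10 most alike with group and sex removed. From each list the genes called and up to 4 with the smallest p in severe minus young are also named. Il13ra2, Tmem219, Il6, Tnf, Lcn2, Tmem119, P2ry12, Trem2, Itgam, Aif1 and Stmn2 were chosen after their values were seen. The fit was tested on simulated data.

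Chil1 and the gene lists were chosen with earlier results of these data known. Alternatives covered normalization, pseudocount, dim probe sets, covariates, variance fit, array weights, each sex alone and arrays left out. Chosen after seeing the data were the sex by group contrast, leaving out each mild replicate, the suffix arrays or middle-aged replicate 4, the differences within 1 sex, the list relations without the mild group, the list counts without Gfap and Tyrobp, and the list counts between the sexes of the mild group.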

Additional observations from a re-analysis of the deposited data

Results flagged for a closer look

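The male minus female difference of Chil1 on the log2 scale in mild mice minus that in middle-aged mice was -0.8384. This difference of differences had a limma adjusted p of 0.0349, in a test added after the values were seen. For this contrast 2.97% of all probe sets were called. Single arrays stood apart from the rest of their group in 4 of 36 groups checked among the chitinase family, Gfap and Tyrobp, and chance alone sets about 1 in 20 groups apart. Chid1 by 1449267_at was lowest in severe replicate 3, at a log2 level of 7.2006. Ctbs by 1427658_at was highest in mild replicate 8, at 4.9518. Gfap by 1426508_at was lowest in severe replicate 4, the only severe male, at 6.6833. Tyrobp was lowest in young replicate 4, at 6.7639. Only groups of 4 to 10 arrays were checked, which leaves out the 17 middle-aged mice. In the severe, mild and young groups no Chil1 value was set apart in this way.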

How the results depend on the processing

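No paired analysis was possible because each mouse number belongs to 1 group only. Over 39 other settings the Chil1 differences severe minus young (0.93 to 1.56), mild minus young (0.53 to 1.29) and severe minus mild (0.28 to 0.62) kept their sign, and middle-aged minus young kept it in 37. Chil1 was chosen on its levels over these groups, so the kept signs are a description and no evidence for a difference. Settings that change only the variance fit or leave out dim probe sets cannot move these values. In females alone mild minus young was 1.29 and mild minus middle-aged 1.26. In males alone, with fewer arrays, severe minus young was 0.93, mild minus young 0.53, severe minus middle-aged 0.83 and mild minus middle-aged 0.43. The sex difference within mild mice missed the threshold with arrays centred on the median (-0.91, adjusted p = 0.0967) and without the suffix arrays (-0.77, adjusted p = 0.493), and ran from -0.995 to -0.776 as single arrays were left out. Its contrast with middle-aged mice missed it with quantile normalization (-0.82), median centring (-0.87), the 3' over 5' covariate (-0.72), the suffix covariate (-0.84), without 3 arrays with cerebellar signal (-0.72) and without the suffix arrays (-0.78), and ran from -0.93 to -0.71 as single arrays were left out. The cause was not tested. Called probe sets numbered 10 to 247 for severe minus young (120 as reported), 7 to 464 for mild minus young (38), 0 to 10 for middle-aged minus young (1) and 8 to 235 between the sexes of mild mice (38). Settings other than the reported one shared 7 to 10 of the 10 genes most like Chil1. The number of arrays limits all sex results, with 4 females and 5 males in the mild group, and no detection call says how far the dim Chil3 lies above background.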

Other observations

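The contrast that compares the sex difference of mild mice with that of middle-aged mice, added after the values were seen, called 4 of 172 list genes other than Chil1, Gfap and Tyrobp. That share, 2.33%, was near the 2.97% of all probe sets called. Serpina3n, the secreted protease inhibitor of reactive astrocytes, had a value of -2.66 on the log2 scale (SE 0.69, limma adjusted p = 0.0302), in the same direction as Chil1. C1qb had -1.16 (SE 0.26, adjusted p = 0.0157) and Cd53, a tetraspanin of leukocytes, -0.68 (SE 0.20, adjusted p = 0.0476). Stmn2, a tubulin-binding protein of neurons, had 1.36 (SE 0.38, adjusted p = 0.0422), in the opposite direction. For this contrast 2.33% of all probe sets were called lower and 0.632% higher. At an unadjusted p under 0.05 there were 10 of 22 myeloid, 9 of 16 unreactive astrocyte, 4 of 8 neuron and 5 of 32 reactive astrocyte genes. There were also 3 of 13 cytokines and cytokine receptors, and at most 2 genes in each other list. The share of all probe sets at that threshold is not given, so these counts cannot be set against it. The median was -0.37 in the myeloid list, against 0.02 over all probe sets. In the unreactive astrocyte list it was -0.09, with 7 of 16 values above 0. The values without single mild replicates were not computed for the 4 genes called.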
